A study of Xenopus laevis with 8 samples.

Results

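The tail fragments of Xenopus laevis (African clawed frog) embryos were described by their brightest genes and by the genes that differed most between single embryos. The brightest genes are the 300 of 15491 probe sets with the highest mean log2 signal over the 4 tail arrays, called the abundant set. The variable genes are the 100 probe sets with the largest SD of log2 signal over the 3 single-embryo tails, among the 6695 whose mean linear signal over the 4 tails was 500 or more. A probe set is a group of short probes for 1 transcript or for several alike, and its signal is a fluorescence intensity. Both sets were chosen from the tail signals, so those means and SDs are given as a description without a test.

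Untreated embryos were cut at stage 18, near the end of neurulation. There were 4 tail arrays and 4 head arrays of the same age, and in each tissue replicates 1 to 3 were single embryos and replicate 4 was a pool. Clutches, pool sizes and any link between equally numbered heads and tails are not in the labels, so p-values cover only the spread between these samples. In a whole fragment, fewer cells of a type and less RNA per cell cannot be told apart.

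At this stage the back of the embryo holds somites that form skeletal muscle, the notochord and the posterior neural tissue. It also holds a mass of yolky endoderm under the skin. At its end lies the region that later forms the tailbud, where Wnt, FGF and T-box genes keep up a supply of mesoderm cells. Every embryonic cell also carries large amounts of RNA for ribosomal proteins, translation factors and the cytoskeleton.

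The label of the tail fragments was set beside markers. The marker lists were chosen with earlier results of these data known, so this is a description and not an independent check. All 12 tail markers were measured, and their summed signal was 14628 to 18785 in tails and 1700 to 4231 in heads. The presomitic gene msgn1.L averaged log2 9.87 in tails and 5.01 in heads. All 15 head markers were measured, with a summed signal of 6382 to 9753 in tails and 71898 to 90695 in heads. Much of these sums came from ag1.L, with 6694.32 in tail 1 and 48948.5 in head 1. Of the tails, tail 1 had the lowest sum of tail markers (14628) and the highest sum of head markers (9753). Single markers did not all follow, and msgn1.L was brightest in tail 1. Whether this bears on the results that rest on tail 1 was not tested. On the tail arrays, 0 tail markers and 4 to 6 head markers were dimmer than log2 6.54, the 20th percentile of all values. The hatching gland protease astl3a.1.L averaged log2 3.94 in tails and 13.51 in heads.

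Tail 1 stood apart from the other tails. Of the 6695 probe sets with a mean signal of 500 or more, 15.7% differed at least 2-fold between tails 1 and 2, 12.8% between tails 1 and 3, and 25.3% between tail 1 and the tail pool. The other pairs of tails differed that much at 4.78% (tails 2 and 3), 7.93% (tail 2 and the pool) and 4.62% (tail 3 and the pool). Head 1 likewise stood apart from the other heads, at 12.4% (head 2), 8.62% (head 3) and 14.9% (head pool). The other pairs of heads differed that much at 4.68% to 5.60%, and tail 1 and head 1 at 15.1%. The median signal was 327 in tail 1, against 378, 345 and 379 in tails 2 and 3 and the pool, and 362 to 390 in heads. Ratios of 3′ to middle signal of 4 control transcripts, which rise as RNA is broken or copied short, did not single out tail 1 as high. For gapdh the ratio was 6.76 in tail 1 and 7.36 to 8.92 in the other tails, for alpha-actin 1 it was 4.62 and 5.57 to 9.10, and for alpha-actin 3 it was 39.1 and 39.3 to 59.6. In these 3 tail 1 was the lowest tail, and for beta-actin it was 4.06, within the 3.66 to 5.05 of the others. The part of RNA quality or signal level in the results that rest on tail 1 was not tested.

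The abundant set began with a skin keratin, krt70.S. Its brightest probe set had log2 signals of 16.40, 16.54 and 16.34 in tails 1 to 3 and 16.16 in the tail pool, with a mean of 16.36 ± 0.16 (SD, n = 4). The 3 krt70.S probe sets held tail ranks 1, 8 and 15. The order is one of signal, which depends on how well each probe set binds, so it does not rank transcript numbers between genes. The set held 28.2% to 32.5% of the summed signal of a tail array, and 223 of its 300 probe sets had 1 gene symbol, for 186 genes. At its lower edge, sec13.S was rank 300 at log2 13.43 and rps28p9.S was rank 301, also at 13.43.

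**Figure D1:**
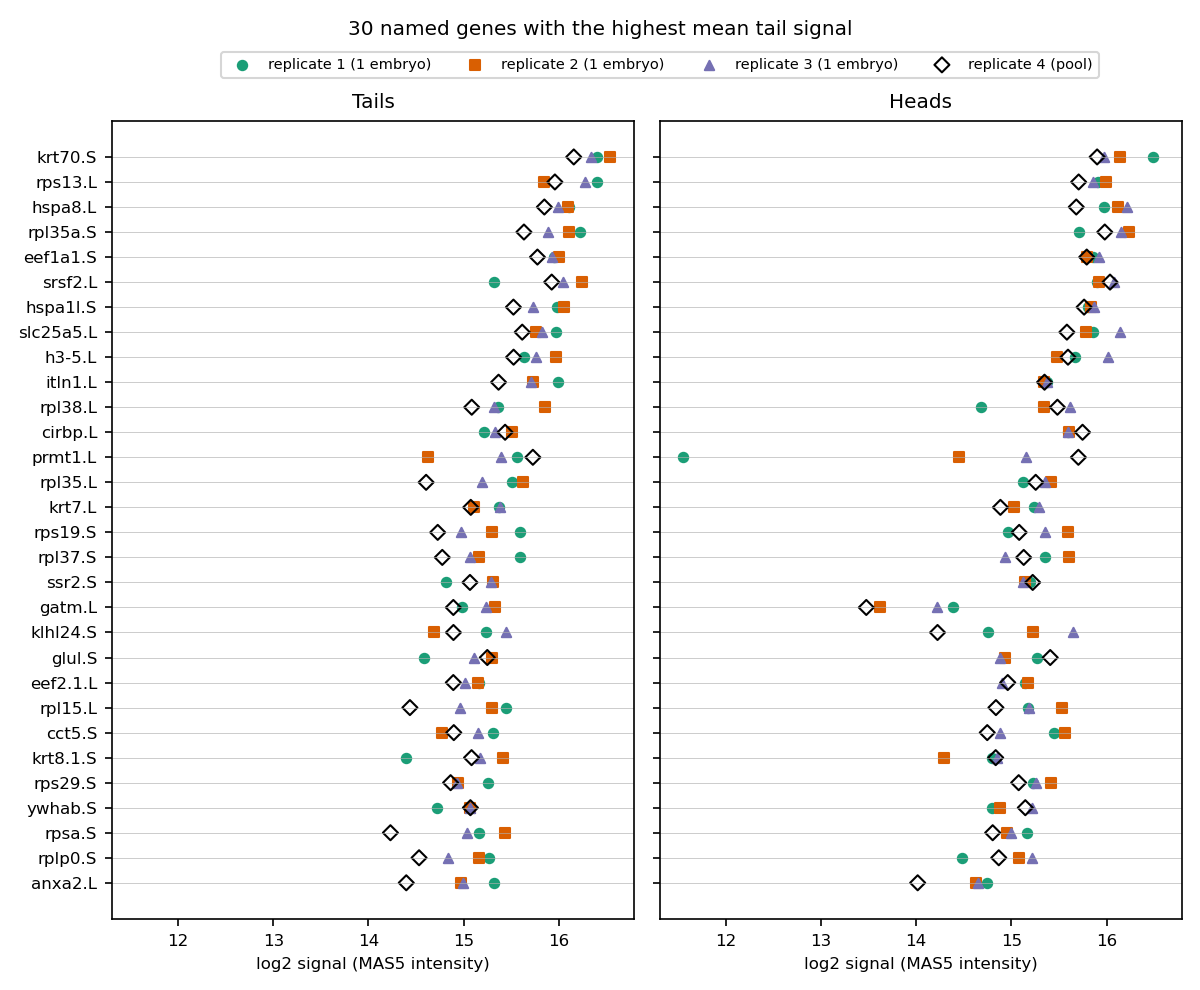
Log2 signal (x axis) of the 30 named genes with the highest mean tail signal, 1 row per gene, in tails (left) and heads (right). Filled points are single embryos and open diamonds are pools; in most rows the single tails lie close together, and prmt1.L in head 1 lies far to the left at 11.55.

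Ribosomal protein genes made up the largest listed group in the abundant set. Of 65 measured ribosomal protein genes, 29 (44.6%) were in it, compared with 186 of all 6504 named genes (2.86%). Rps13.L, a protein of the small ribosomal subunit, had log2 signals of 16.40, 15.84 and 16.28 in tails 1 to 3 and 15.96 in the pool. Rpl35a.S, of the large subunit, gave 16.22, 16.11 and 15.88 in the single tails and 15.63 in the pool, which was the lowest tail. Rpl15.L spread over a wider range, with 15.45, 15.30 and 14.96 in the single tails and 14.44 in the pool.

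Translation factors gave 11 of 40 measured genes (27.5%). Eef1a1.S, the elongation factor that delivers aminoacyl-tRNA to the ribosome, was 15.95, 16.00 and 15.92 in the single tails and 15.78 in the pool. Its SD over single embryos of 0.04 was among the 5 smallest of named genes in the set. Eef2.1.L, the factor that moves the ribosome along the mRNA, averaged 15.06 ± 0.13. Eif5a.L averaged 14.80 ± 0.20 and was brightest in the pool, at 15.05. RNA-binding and splicing genes gave 8 of 54. The splicing factor srsf2.L was 15.32 in tail 1, below 16.24, 16.04 and 15.93 in the other tails, while its 4 head values lay between 15.90 and 16.08. Cirbp.L, an RNA-binding protein induced by cold in mammals, averaged 15.37 ± 0.13 in tails.

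Skin and cytoskeleton genes were further groups. Of 53 measured epidermis genes, 12 (22.6%) were in the abundant set: anxa2, anxa4, has1, itln1, jup, krt7, krt8.1, krt12.4, krt12.5, krt19, krt70 and otogl2. The mucus lectin itln1.L was 15.99, 15.72 and 15.71 in the single tails and 15.37 in the pool, against 15.34 to 15.38 in the 4 heads. Krt7.L averaged 15.23 ± 0.16 in tails. The simple-epithelium keratin krt8.1.S was lowest in tail 1, at 14.39, with 15.41, 15.18 and 15.08 in the other tails. The cytoskeleton list gave 10 of 38 genes. Among them were cytoplasmic actin actg1.L at 14.78 ± 0.24, the light chain myl12b.L at 14.86 ± 0.15 and the alpha-tubulin tuba5.S at 14.71 ± 0.40. Tubb4b.L, a beta-tubulin found in cilia as well as in the general cytoskeleton, had a single-embryo SD of 0.05.

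Chromatin, chaperone and energy genes filled further places. Core histone and chromatin genes gave 6 of 30, among them the replacement histone h3-3b.S at 14.56 ± 0.17 and the histone variant h2az1.L at 14.48 ± 0.18. Chaperone and proteasome genes gave 7 of 65. The constitutive heat-shock protein hspa8.L was 16.11, 16.09 and 15.99 in the single tails and 15.85 in the pool. The mitochondrial list gave 5 of 63 genes, such as the ADP/ATP carrier slc25a5.L at 15.79 ± 0.15 and the ATP synthase subunit atp5f1b.S at 14.43 ± 0.23. Energy metabolism gave 5 of 34, including gatm.L and gamt.S, which carry out the successive steps of creatine synthesis. Stress and immediate early genes gave 3 of 39.

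Other tissue lists gave smaller counts. Skeletal muscle gave 3 of 59 measured genes (5.08%). They were the tropomyosin tpm3.S, the slow troponin I gene tnni1.2.L and atp2a1.S, the calcium pump of the muscle reticulum. Atp2a1.S was 12.51 in tail 1 and 14.16, 14.20 and 14.54 in the other tails. Tnni1.2.L went the other way, with 14.84 in tail 1 and 13.64, 13.72 and 13.64 in the others, so these 2 muscle probe sets did not share an order of embryos. Endoderm gave 3 of 21 (14.3%), the tight-junction gene cldn6.2.S, the protease inhibitor a2m.S and darmin.L, an endodermal peptidase. Notochord gave 2 of 20, calr.L and krt8.1.S, and ciliated cells and ionocytes 2 of 36, the proton pump subunit atp6v0c.L and tubb4b.L, genes that many other cells use as well. The matrix protein fibronectin, fn1.S, was the only 1 of 36 matrix genes, and odc1.L, the first enzyme of polyamine synthesis, the only 1 of 48 yolk, maternal and cell cycle genes. None of the 51 tailbud and presomitic, 15 posterior Hox or 41 neural genes on the lists was in the set. Nor was any of the 28 blood and vessel genes, 24 head markers or 10 germ plasm genes listed. These counts cover only listed genes, and sp5l.S, at tail rank 56, was not on the tailbud list.

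The abundant set of tails was mostly that of heads. Ranked in the same way on their own arrays, heads shared 256 of the 300 probe sets, which is 85.3% of each set. Of the 44 that were bright in tails alone by this cut, the highest was sp5l.S, a zinc finger transcription factor of the Sp family. It had 14.82, 14.42 and 14.93 in the single tails and 15.01 in the pool, against 14.46, 11.38 and 12.37 in the single heads and 12.12 in the head pool. Head 1 thus lay among the tails, and tail rank 56 stood against head rank 680. Also among the 44 were ckmt1b.S, post.L, gfpt1.S, has1.S, tnni1.2.L, gamt.S, xmc.L, darmin.L and the splicing regulator esrp1.L. Prmt1.L, an arginine methyltransferase, was 15.56, 14.63 and 15.40 in the single tails and 15.73 in the pool, against 11.55, 14.45 and 15.15 in the single heads and 15.70 in the head pool.

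Against heads, 16 of the 300 abundant probe sets were higher in tails and 0 were lower (limma, Benjamini-Hochberg adjusted p under 0.05 over 9295 probe sets, of which 2.61% were called higher and 2.0% lower in tails, 4.62% in either direction). The members were picked for high tail signal, so nothing is read from these counts. The differences and p-values of single members below reuse those tail values, which tilts them towards tails, and they are given as a description. At an unadjusted limma p under 0.05, 40 were higher and 6 lower in tails. Post.L had 13.74, 14.08, 13.65 and 13.85 in tails 1 to 3 and the pool, against 11.59, 10.25, 10.85 and 10.97 in heads 1 to 3 and the pool. That is 7.53-fold (log2 2.91, SE 0.27, limma adjusted p = 6.12e-05), and a second post.L probe set gave 5.83-fold (log2 2.54, limma adjusted p = 5.36e-05). Xmc.L, known as marginal coil, was 6.88-fold higher, with 13.36 to 14.22 in tails and 10.85 to 11.16 in heads. Darmin.L was 6.05-fold higher and XB5872372.S 5.50-fold higher in tails.

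Gatm.L, gamt.S, ckmt1b.S, has1.S and gfpt1.S were among the others that passed. Gatm.L was 14.98, 15.33, 15.23 and 14.89 in tails 1 to 3 and the pool, and 14.39, 13.61, 14.22 and 13.48 in heads, with no overlap. Its difference was log2 1.19 (SE 0.23, limma adjusted p = 0.0114). Gamt.S differed by log2 1.21 (limma adjusted p = 0.0202) and ckmt1b.S, the mitochondrial creatine kinase, by log2 1.34 (limma adjusted p = 0.0319). For ckmt1b.S the lowest tail, the pool at 13.89, lay below the highest head, head 2 at 14.04. The hyaluronan synthase has1.S differed by log2 1.29 and gfpt1.S, the entry enzyme of hexosamine synthesis, by log2 1.12.

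Bright probe sets had small SDs over the single-embryo arrays. Each single embryo gave 1 array, so differences between embryos and between arrays cannot be told apart. The median SD over the 3 single tails was 0.25 in the abundant set and 0.33 over the 6695 probe sets with a mean signal of 500 or more. For the same abundant probe sets the SD over the 3 single heads had a median of 0.25, against 0.30 over the 6695. The steadiest named genes in tails were mtdh.S, eef1a1.S, srsf5.S, tubb4b.L and rhoa.L, with SDs of 0.04 to 0.06. The pool did not always follow: srsf5.S was 14.25, 14.29 and 14.20 in the single tails and 13.64 in the pool. In 2 abundant probe sets the SD reached 1. They were fn1.S, with 12.58 in tail 1, 14.49 and 14.21 in tails 2 and 3 and 15.29 in the pool, and an unnamed one.

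**Figure D2:**
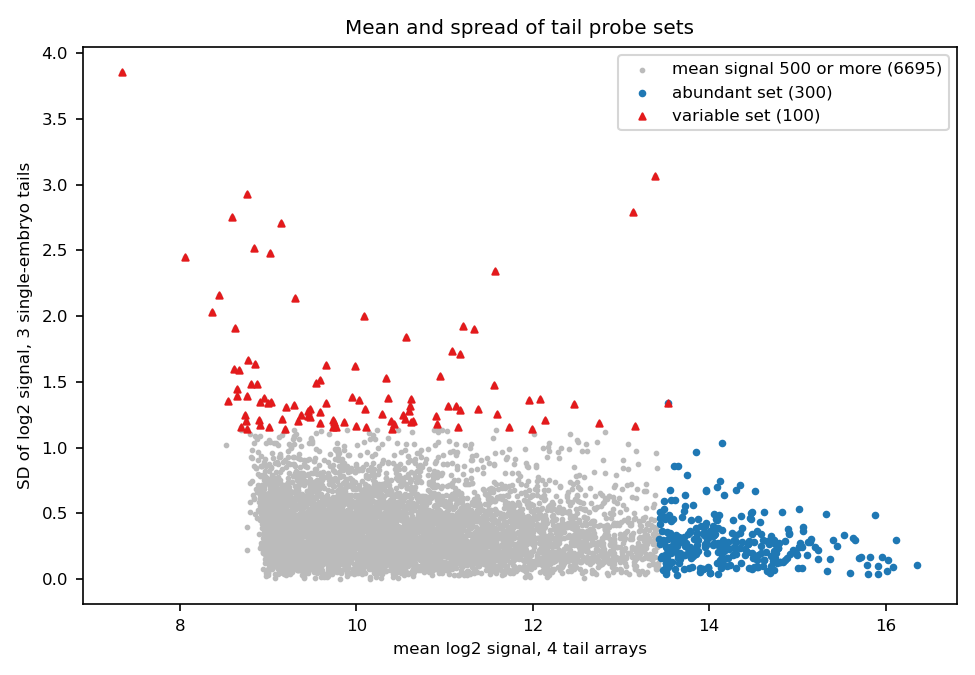
SD of log2 signal over the 3 single-embryo tails (y axis) against mean log2 signal over the 4 tail arrays (x axis), 1 point per probe set with a mean signal of 500 or more. Blue points are the 300 abundant and red triangles the 100 variable probe sets; only 1 probe set is in both, and most abundant points lie under an SD of 0.5.

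Among all 6695 probe sets, 175 (2.61%) had a tail SD of 1 or more. With tail 1 left out, 95 did over tails 2 and 3. The variable set ran from an SD of 3.85 down to 1.14, with a median of 1.33, and 65 of its 100 probe sets had 1 symbol, for 61 genes. Its last members were tnni2.S and trim29.L at 1.14, and the first probe set outside it, unnamed, was also at 1.14. The same 100 probe sets had a median SD of 0.59 over the single heads, against 0.30 for all 6695, and 24 of the 100 reached 1 in heads, against 2.54% of all. Across the 6695 probe sets, tail SD and head SD had a Pearson r of 0.28 and a Spearman rho of 0.17, as a description of values that share probe sets, scaling and signal range.

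**Figure D3:**
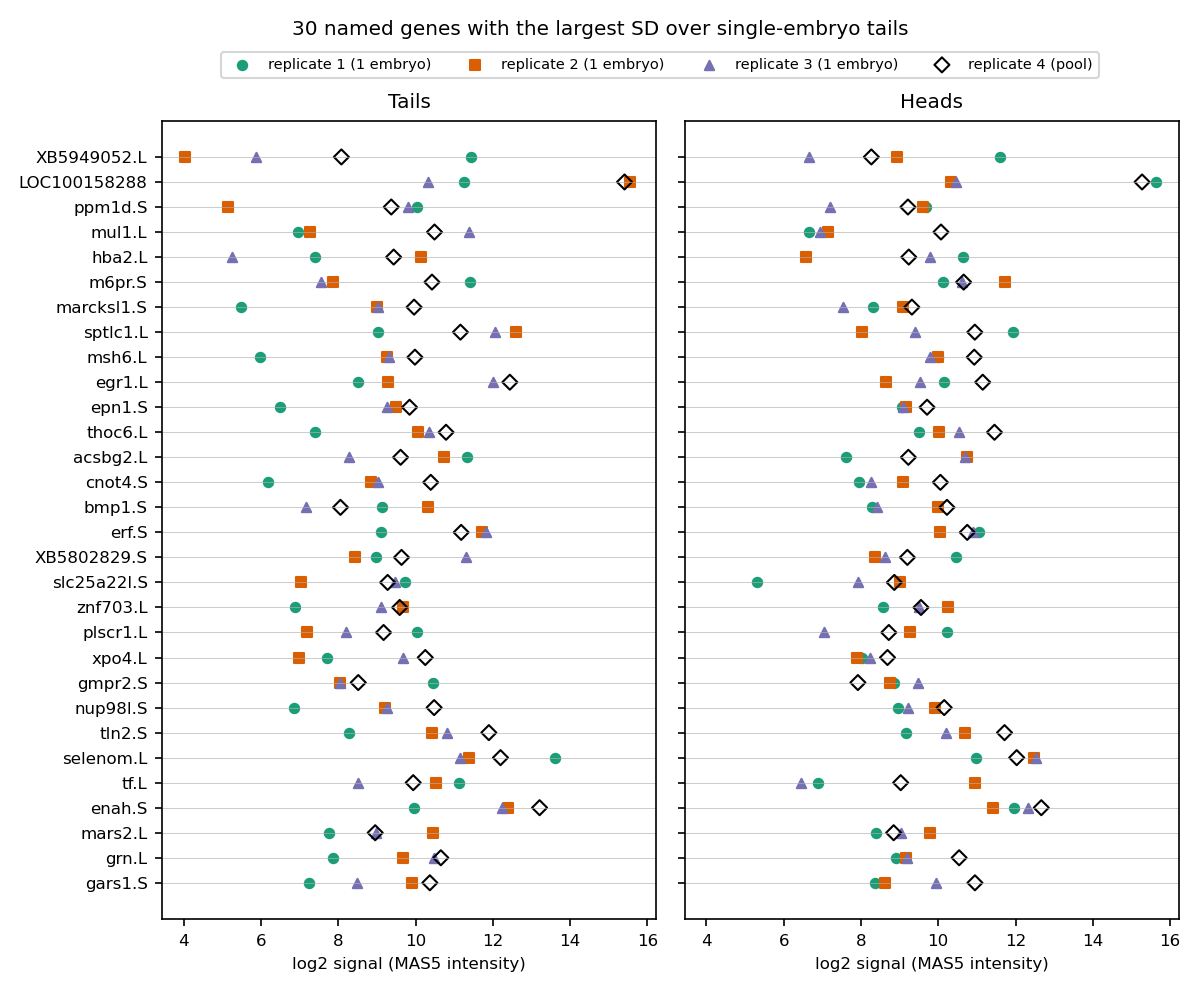
Log2 signal (x axis) of the 30 named genes with the largest SD over the single-embryo tails, 1 row per gene, in tails (left) and heads (right). Filled points are single embryos and open diamonds are pools; tail 1 is the lowest point in rows such as marcksl1.S (5.48) and msh6.L (5.97), and LOC100158288 takes values near 10 to 11 or near 15 in both tissues.

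LOC100158288, with the second largest SD of a named gene, had its values at separate levels. It was 11.26, 15.56 and 10.31 in tails 1 to 3 and 15.41 in the tail pool, against 15.65, 10.33 and 10.46 in heads 1 to 3 and 15.28 in the head pool. One single embryo in each tissue was as bright as the pools, at a different replicate number in each. XB5949052.L, the largest SD of all, was 11.42, 4.02 and 5.86 in the single tails and 8.08 in the pool, and 11.59, 8.94, 6.66 and 8.27 in heads 1 to 3 and the pool. Its 2 lower single tails were dimmer than that 20th percentile, so its 169-fold range rests on dim signals.

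Mul1.L and sptlc1.L had probe sets of their own gene that did not share their large SDs. Mul1.L, a mitochondrial ubiquitin ligase, was 6.94 and 7.26 in tails 1 and 2, 11.39 in tail 3 and 10.49 in the pool, against 6.65 to 7.16 in the single heads and 10.07 in the head pool. High values were thus seen in tail 3 and in both pools. The other mul1.L probe set did not follow, with an SD of 0.37. Sptlc1.L, a subunit of the first enzyme of sphingolipid synthesis, was 9.02, 12.59 and 12.06 in the single tails and 11.16 in the pool. In heads it was 11.95, 8.03 and 9.39 in single embryos and 10.95 in the pool. A second probe set of sptlc1.L was also in the variable set, and 2 others had SDs of 0.47 and 0.53.

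Hba2.L, egr1.L and tf.L were also among the genes with large tail SDs. The alpha-globin gene hba2.L was 7.38, 10.14 and 5.26 in the single tails and 9.43 in the pool, and 10.64, 6.57, 9.80 and 9.24 in heads 1 to 3 and the pool. The tail 3 value of hba2.L was dimmer than log2 6.54, so the size of its SD rests on a dim signal. Its mean signal over the single tails alone was under 500, and it passed the minimum only through the pool, at 690. Hba2.L was the only 1 of 9 blood and vessel genes in the variable set. Egr1.L, a transcription factor switched on within minutes by growth factors or wounding, was 8.50 and 9.29 in tails 1 and 2, 12.01 in tail 3 and 12.44 in the pool. Its heads lay between 8.65 and 11.15. The iron carrier tf.L was 11.11, 10.54 and 8.52 in the single tails, with a wider head range, 6.44 to 10.95. Of the 100 most variable probe sets in heads, picked in the same way, 19 were among the tail 100 (19% of each).

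Tail 1 was the embryo that most often stood apart, in the variable set and over all probe sets. The single tails chose the set, so its counts are a description. In 58 of the 100 probe sets it was the embryo farthest from the nearer of the other 2, tail 2 was in 23 and tail 3 in 19. Tail 1 was the low embryo in 49 and the high one in 9. Over all 6695 probe sets tail 1 was the farthest in 49.2%, low in 26.1% and high in 23.1%. Ranked without tail 1, 40 of the 100 stayed among the 100 largest SDs. The 49 probe sets low in tail 1 had a median difference from tails 2 and 3 of log2 -2.14. The same difference had a median of log2 -0.60 in the single heads and of log2 0.51 in the tail pool. The pool entered the minimum of signal, which a probe set low in tail 1 may have passed through it. Of the 49, 40 also had a mean signal of 500 or more over the single tails alone, and in these the pool's median was log2 0.35. Tail 1 was the lowest of all 8 arrays in 40 of the 49. These were picked for a low tail 1, so nothing is read from this count. Among the 3 single heads, head 1 was the lowest in 22, head 2 in 16 and head 3 in 11.

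**Figure D4:**
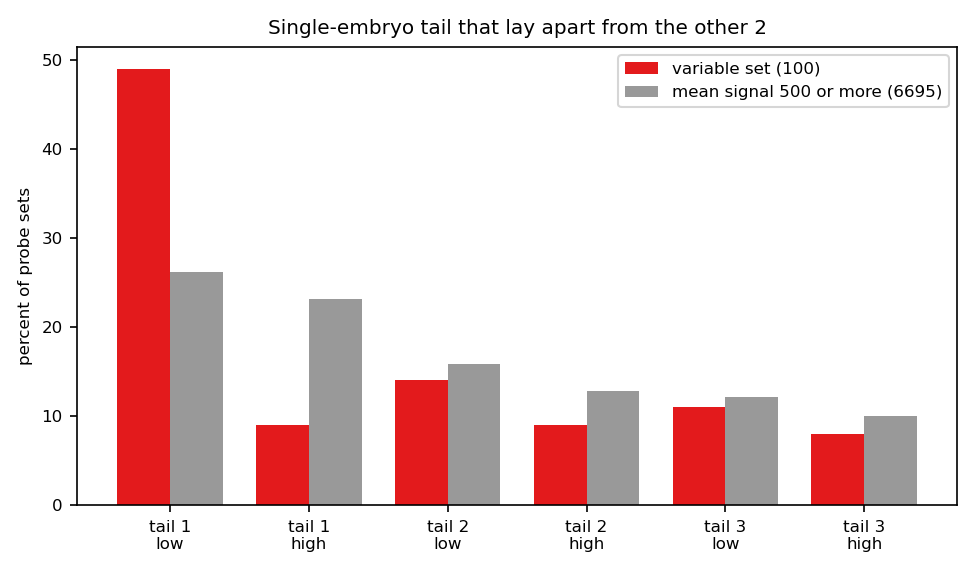
Percent of probe sets (y axis) in which each single-embryo tail was the 1 farthest from the other 2, by tail and by direction (x axis). Red bars are the variable set (100 probe sets) and grey bars all probe sets with a mean signal of 500 or more (6695); tail 1 low is 49% in red and 26.1% in grey.

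Among the named genes low in tail 1, picked here as examples, were some that bind actin or link cells to matrix. The cytoskeleton list as a whole did not share this, at a mean of log2 -0.05 in tail 1 with 11 of 34 genes lowest and 18 highest there. Marcksl1.S, a membrane protein that binds actin, was 5.48 in tail 1, 8.99 and 9.03 in tails 2 and 3 and 9.96 in the pool, against 7.53 to 9.32 in heads. Its L copy showed the same order, with 6.75 in tail 1, 8.62 and 9.13 in tails 2 and 3 and 10.43 in the pool. Over the single tails alone, both copies had a mean signal under 500. They passed the minimum only through the pool, at signals of 995 for marcksl1.S and 1377 for marcksl1.L. The tail 1 value of marcksl1.S was also dimmer than log2 6.54, so the size of its SD rests on a dim signal. The focal adhesion protein tln2.S was 8.27 in tail 1 and 10.43 to 11.89 in the other tails. Enah.S, which lengthens actin filaments, was 9.97 in tail 1 and 12.23 to 13.21 in the others. Actn1.S, an actin crosslinker, gave 10.27 in tail 1 and 11.45 to 12.61 in the others. The L copies of these 2 genes were lowest in tail 1 too but varied less. Enah.L had an SD of 0.48, against 1.36 for enah.S, and actn1.L 0.18, against 1.16 for actn1.S. All 4 probe sets of fn1.S were lowest in tail 1, with SDs of 0.97 to 1.29.

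Endoderm genes did not all take 1 order. Of 9 with a mean signal of 500 or more, 5 were lowest and 2 highest in tail 1, and 3 were in the variable set. Gata6.L, a transcription factor of early endoderm and heart, was 9.32, 10.78 and 11.96 in tails 1 to 3 and 12.09 in the pool, with heads between 9.97 and 11.31. Gata5.S was 7.84, 9.55 and 10.33 in the single tails and 10.08 in the pool. Sox17a.L, which sets up the endoderm, was 7.86, 9.58 and 10.02 in the single tails and 9.31 in the pool, and spread from 3.43 to 9.71 in heads. These 3 are 33.3% of the 9, against 61 of 3543 named genes (1.72%). Darmin.L and cldn6.2.S of the same list were brightest in tail 1, at 14.32 and 14.53. Ranked without tail 1, 0 of the 9 were in the set. The other probe sets, gata5.L and sox17a.S, were lowest in tail 1 too, with SDs of 0.47 and 0.51.

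Other named genes low in tail 1 act in the nucleus or on RNA, again picked as examples. The RNA-binding list had 21 of 51 genes lowest and 16 highest in tail 1, and its 1 variable member, hnrnpk.S, stood apart in tail 3. The mismatch repair gene msh6.L was 5.97 in tail 1, 9.26 and 9.31 in tails 2 and 3 and 9.98 in the pool, against 9.80 to 10.93 in heads. Thoc6.L, part of the mRNA export complex, was 7.40 in tail 1 and 10.06 to 10.79 in the other tails. Cnot4.S, a ubiquitin ligase of the deadenylase complex, was 6.17 in tail 1 and 8.86 to 10.39 in the others. The tail 1 values of msh6.L and cnot4.S were dimmer than log2 6.54, so the size of their SDs rests on dim signals. Both genes had a mean signal under 500 over the single tails alone. They passed the minimum only through the pool, at signals of 1011 for msh6.L and 1342 for cnot4.S. Erf.S, a repressor of the ETS family, was 9.10 in tail 1 and 11.18 to 11.81 in the others, and its 4 probe sets had SDs of 0.95 to 1.54. Pou5f3.1.L, a POU factor of uncommitted cells, was 9.13 in tail 1 and 10.98 to 12.01 in the others.

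In the variable set 6 named genes were high in tail 1. They were XB5949052.L, m6pr.S, the scramblase plscr1.L, gmpr2.S, selenom.L and pcdh8.2.L. The adhesion protein pcdh8.2.L, a protocadherin on the tailbud list, was 12.25 in tail 1, 10.30 and 10.19 in tails 2 and 3 and 11.85 in the pool. M6pr.S, a receptor that sorts lysosomal enzymes, was 11.40 in tail 1, 7.85 and 7.56 in tails 2 and 3 and 10.42 in the pool, against 10.12 to 11.74 in heads. Selenom.L, a selenoprotein of the endoplasmic reticulum, was 13.62 in tail 1 and 11.13 to 12.20 in the others. Gmpr2.S, a purine salvage enzyme, was 10.45 in tail 1 and 8.04 to 8.51 in the others.

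Other probe sets of the variable set stood apart in tail 2 or in tail 3. Ppm1d.S, a phosphatase of the p53 response, was 5.15 in tail 2 and 10.03, 9.80 and 9.37 in tails 1 and 3 and the pool. Its tail 2 value was dimmer than log2 6.54, so the size of this drop rests on a dim signal. The ppm1d.L probe sets did not drop in this way, at 10.36 and 10.52 in tail 2. Slc25a22l.S, a mitochondrial carrier, was 7.03 in tail 2 and 9.27 to 9.71 in the other tails. The fast troponin I gene tnni2.S was 11.03 in tail 2, with 13.31, 12.23 and 11.40 in tails 1 and 3 and the pool, and a second tnni2.S probe set had nearly the same SD (1.13). In tail 3, bmp1.S, a protease that matures collagen, was 7.17, against 9.14, 10.32 and 8.05 in tails 1 and 2 and the pool, while its other probe set had an SD of 0.17.

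Other probe sets of the same genes, outside the variable set, were set beside its members. Here the L and S copies counted as the same gene, so some pairs join an L with an S copy. There were 38 pairs of a member and such a probe set with a mean signal of 500 or more. Both were lowest in the same single tail in 24 pairs (63.2%), compared with 55.1% of 2528 pairs over all genes. Both were highest in the same tail in 18 pairs (47.4%), compared with 53.2%. The other probe sets had a median SD of 0.49, against 0.33 over all genes. Pairs share a gene or a member, so they are not independent. Selenot.L shows how far they can part, with an SD of 1.17 for the member and 0.11 to 0.29 for the others.

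The position of the pool differed between the sets. In the abundant set the pool lay below all 3 single tails in 163 probe sets, within their range in 88 and above them in 49. In the variable set it lay below in 1, within in 65 and above in 34. Over the 6695 probe sets these shares were 29.2%, 41.3% and 29.5%. The pool entered the means that chose the abundant set and the minimum of signal, so its position is not independent of either choice, and wide ranges between embryos hold more values by their width.

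Some gene lists shifted by array. Ribosomal protein genes had a mean difference from the average of the single tails of log2 0.29, -0.13 and -0.17 in tails 1 to 3 and -0.55 in the pool. Of 62 such genes with a mean signal of 500 or more, 57 were highest in tail 1 among single embryos, and in 52 the pool lay below all 3. Mitochondrial genes followed the same order, at 0.30, -0.11 and -0.19 in the single tails and -0.55 in the pool, with 48 of 56 highest in tail 1. Over all 3543 named genes the means were -0.02, 0.00, 0.02 and 0.01, and 1579 were highest in tail 1. In tail 1 translation factors were at -0.03, cytoskeleton genes at -0.05 and epidermis genes at 0.02. Bright probe sets as a whole also leaned towards tail 1. The abundant set held 32.5% of the summed signal in tail 1 and 28.2% in the pool, the most and the least of the tails.

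Among tissue lists, ciliated cells and ionocytes took the order of the ribosomal genes, at 0.12, -0.04 and -0.08 in the single tails and -0.32 in the pool (30 genes). The means of the 3 head markers with enough signal fell in that order too, at 0.20, -0.06, -0.14 and -0.16. Of these 3, 2 were highest and 1 was lowest in tail 1, and in 1 the pool lay above all single tails. Other lists differed. Skeletal muscle genes were at 0.36, -0.35 and -0.01 in the single tails and -0.25 in the pool, with 26 of 34 highest in tail 1 and 25 lowest in tail 2. The array's alpha-actin 1 control did not share that order, with a 3′ signal of 8422, 46344, 33288 and 38641 in tails 1 to 3 and the pool. The alpha-actin 3 control lay between 37495 and 39221 in all 4. Endoderm genes were at -0.40, 0.01 and 0.40 in tails 1 to 3 (9 genes). Posterior Hox genes were at -0.37, 0.41 and -0.04, with 5 of 5 highest in tail 2. Notochord genes were at -0.28, 0.18 and 0.10 (8 genes), and matrix genes at -0.26, 0.22 and 0.05 (14 genes). RNA-binding genes were at 0.25 and stress genes at 0.38 in the pool.

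**Figure D5:**
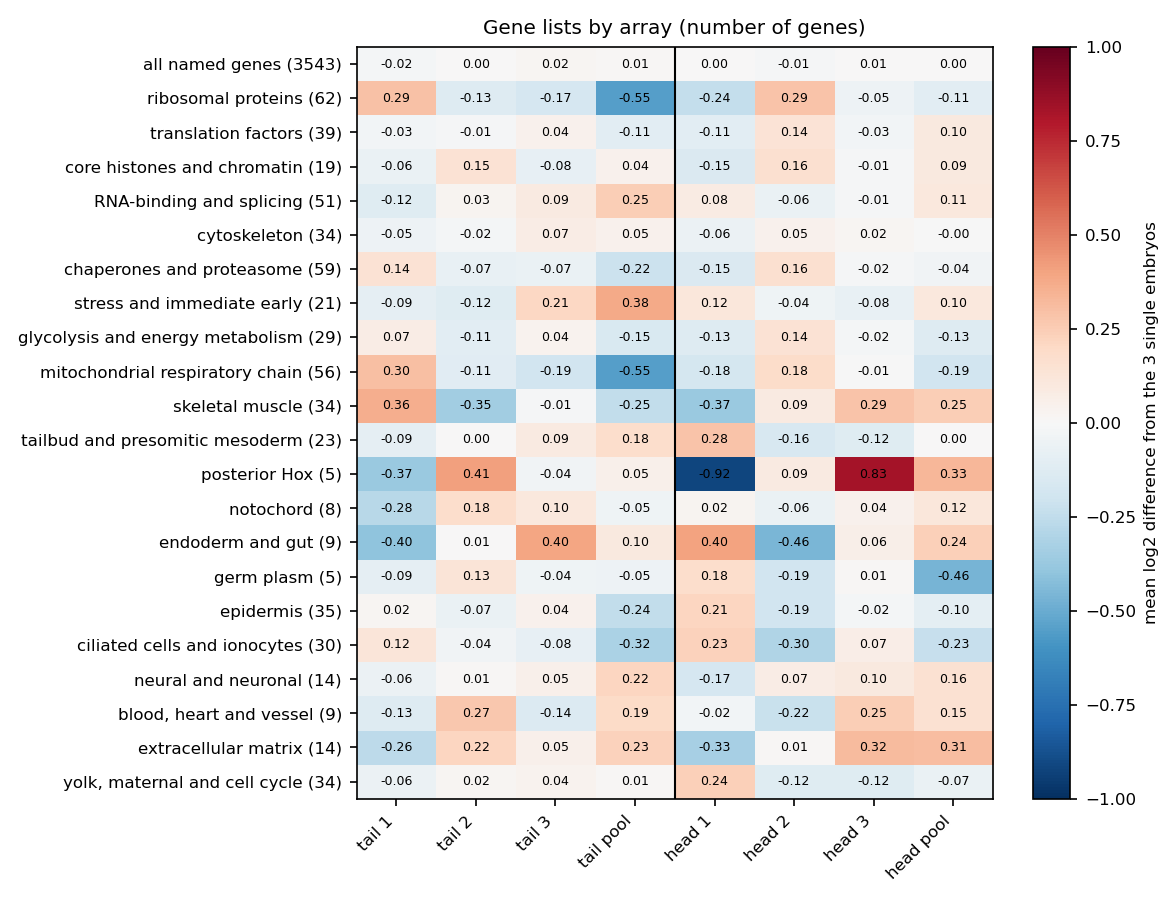
Mean log2 difference of each gene list (rows, with the number of genes of signal 500 or more) from the mean of the 3 single embryos of the tissue, by array (columns, tails left of heads). Red is above and blue below that mean; ribosomal and mitochondrial genes are red in tail 1 and blue in the tail pool, and the scale ends at -1 and 1.

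Against heads, of the 100 variable probe sets 3 were higher in tails and 0 lower (limma, adjusted p under 0.05, against 2.61% and 2.0% of the 9295 probe sets). At an unadjusted limma p under 0.05, 5 were higher and 3 lower. A large tail SD widens the error of this test, so nothing is read from these counts. The minimum of signal also used the tail values, so the differences of single members below are given as a description. Ch25h.L, cholesterol 25-hydroxylase, was 8.64, 10.09, 10.94 and 10.77 in tails 1 to 3 and the pool, and 7.33, 5.84, 5.99 and 4.81 in heads. All tails lay above all heads (log2 4.12, SE 0.57, limma adjusted p = 0.00136), although 3 of the 4 heads were dimmer than the 20th percentile. Nradd.L, a death-domain membrane protein, differed by log2 2.05 (limma adjusted p = 0.0460), and tail 1 at 8.75 lay below the highest head at 8.96. Its adjusted p missed the threshold under 10 other settings (0.051 to 0.148). The third was an unnamed probe set (log2 3.77, limma adjusted p = 0.00309), whose 4 heads, at 5.78 to 6.35, were all dimmer than the 20th percentile. With tail 1 left out 7 of the 100 passed, and with tail 2, tail 3 or the tail pool left out 0 did.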

How the data were processed

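Total RNA was labelled as biotin cRNA after 2 rounds of amplification, per the labels' protocols. The authors deposited linear intensity values, and the submitters' processing notes name MAS5 without a version. The arrays came scaled, each with a trimmed mean of 1000 (2% of values dropped at either end). No detection calls were used, and precision is limited by the number of arrays.

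Of 15611 probe sets, 120 controls were left out. Of the other 15491, 9304 had 1 symbol, 195 had several (not named) and 5992 were not listed in the array annotation. RefSeq's Xenopus_laevis_v10.1 table updated 9227 by gene identifier. Polr2i, listed for 11 unlike probe sets, was not interpreted. Probe sets of the L and S copies of a gene may bind both. No genome build was named, so no positions are given.

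Signals below 1 were set to 1 before log2. Named genes were the 30 brightest and the 5 steadiest of the abundant set, the 30 most variable, up to 4 members of each of 22 gene lists per set, those at the edges, and the 5 members with the largest called differences from heads. Others were named after their values were seen. Numbered copies of a listed symbol were counted, chosen after seeing the data. The members and lists were chosen with earlier results of these data known. A list is described by its counts and means, beside those of all named genes.

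The comparison of tails with heads used limma 3.58.1 under R 4.3.3 (lmFit, then a trended eBayes, two-sided, Benjamini-Hochberg) on all 8 arrays, over 9295 probe sets at or above the 40th percentile of mean log2 signal (7.86). The fit was tested on simulated data. Alternatives changed the ranking, normalization, floor, filters, block and arrays.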

Additional observations from a re-analysis of the deposited data

Results flagged for a closer look

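In 11 of 266 groups of 4 arrays tested, the highest or lowest array lay far from the other 3 by Dixon's ratio at its 95% critical value. Chance marks about 1 group in 20 in this way where groups are not picked by their values. Many of the genes here were picked by their own tail values, so that rate is no guide for their tail groups. In tails, ywhab.S was 14.72 in tail 1 with the others at 15.06 to 15.07, and tnni1.2.L was 14.84 in tail 1 with the others at 13.64 to 13.72. Tail 2 was low for ppm1d.S, at 5.15 against 9.37 to 10.03, and for slc25a22l.S, at 7.03 against 9.27 to 9.71. The ppm1d.S value in tail 2 was dimmer than log2 6.54. The tail pool was low for the splicing factor srsf5.S, at 13.64 against 14.20 to 14.29. In heads, the pool stood apart for cirbp.L (15.75, others 15.60), anxa2.L (14.02, others 14.62 to 14.74), mul1.L (10.07, others 6.65 to 7.16) and epn1.S (9.71, others 9.07 to 9.16). Head 2 was low for krt8.1.S, at 14.30 against 14.80 to 14.84. The yolk, maternal and cell cycle list averaged log2 0.24 above the mean of the single heads in head 1, with the other heads at -0.12 to -0.07.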

How the results depend on the processing

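The abundant set kept 282 to 298 of its 300 probe sets under all rankings tried, and its overlap with heads was 83.3% to 86.3%. The count of probe sets with a tail SD of 1 or more was 175, but 107 with a pseudocount of the 20th percentile, 100 with a mean signal of 1000 or more, and 95 to 364 with 1 tail left out. The variable set shared 58 of its 100 with the set at a mean signal of 1000 or more, 66 with the SD over all 4 tails, and 40 to 68 with 1 tail left out (40 without tail 1, 62 without tail 3). Tail 1 was the farthest embryo in 52 to 68 of 100 under the other settings.

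The 429 probe sets called against heads became 273 with a filter at the 60th percentile, 212 with single embryos only and 211 to 508 with 1 array left out. The called abundant members, 16, became 9 with single embryos and 6 to 20 with 1 array left out. The called variable members, 3, became 1 with the stricter filter, 1 with single embryos and 0 to 7 with 1 array left out (0 without tail 2, tail 3 or the tail pool, 7 without tail 1). The smaller fits have fewer arrays. Single genes were followed through the settings only for post.L, xmc.L, darmin.L, XB5872372.S, ch25h.L and nradd.L. Of these only nradd.L missed the threshold, under 10 settings (limma adjusted p 0.051 to 0.148), with the same direction. No result reversed.

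With the replicate number as a block, 635 probe sets were called, among them 21 abundant and 4 variable members. The numbers were not taken to pair the samples, since the labels do not link them. The correlations of same-numbered deviations were 0.23, 0.03, 0.02 and 0.60. Tail 1 and the tail pool correlated best with the head of their own number, tail 2 with the head pool and tail 3 with head 1. Over the single embryos the same-numbered values were 0.09, 0.07 and 0.06, against -0.13 to 0.09 for other numbers. Whether equal numbers share an embryo is thus not known.

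List counts in the variable set rest on few genes: without tail 1 the endoderm count was 0, not 3, and the neural count 3, not 0. Log2 values of signals under 93.3, the 20th percentile, are imprecise, and the array background was not measured here.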
